A study of Peromyscus maniculatus with 16 samples.

Results

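Apoa4 and the other genes that build, coat and regulate the lipoprotein particles of the liver were followed in the livers of 16 deer mice (*Peromyscus maniculatus*). The genes were chosen by symbol from what their proteins do, with earlier results of the same livers known, and Apoa4 leads the set because its level had already been seen to differ between the diets. The 10 symbols were Apoa4, Apoa1, Apoa2, Apoa5, Apoc3, Apoc2, Apob, Apoe, Apom and Mttp. Of these, 9 had a line in the count table of 16910 genes, and all 9 were among the 12639 genes tested. Apoc2 was not analysed here. Since their levels in the diet groups helped to choose them, the differences of the 9 genes between those groups are given as a description, with their errors and without p-values.

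The study asked how the liver transcriptome of outbred deer mice differs between animals that developed steatosis, the storage of fat in liver cells, on a high-fat diet and animals that did not. The C group (n = 6) ate a regular chow diet, and the NS group (n = 5) and the S group (n = 5) ate a high-fat diet (HFD) that also held sucrose, each for 28 weeks, until about 10 months of age. Livers of the S group had steatosis and livers of the NS group had none, so S and NS were set by what the liver looked like after the same diet and not by assignment. Liver RNA was sequenced per animal, with 4640733 to 11349971 counts assigned to genes.

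The animals were of 2 stocks, a closed colony of *P. m. bairdii* (BW, 13 animals) and the Sonoran deer mouse *P. m. sonoriensis* (SM2, 3 animals), with 1 SM2 male in each group. The C and NS groups were all male, and the S group held 3 females (35955, 35982 and 35990) and 2 males, so that in S the sex and the steatosis cannot be fully told apart. Levels are given as CPM, the counts of a gene relative to the scaled total of its library, after TMM scaling, which corrects for differences in library composition, and a gene's CPM also depends on its length, so CPM is compared between animals and not between genes.

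Lipoproteins are particles of lipid and protein that carry fat through the blood. The liver wraps triglyceride around apolipoprotein B with the help of the microsomal triglyceride transfer protein and secretes it as very low density lipoprotein (VLDL), and it also makes the A apolipoproteins that form high density lipoprotein (HDL). Smaller, exchangeable apolipoproteins ride on both kinds of particle and set how fast lipases and receptors take up their load. In rodents Apoa4 is made chiefly by the small intestine and, at a lower level, by the liver, where fasting and fat load are known to raise it through the transcription factor Creb3l3.

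Apoa4 was the gene of the set that differed most among animals. In C livers its level was 18.4, 17.8, 34.3, 31.0, 23.8 and 212 CPM in animals 10876, 35972, 35975, 35998, 36001 and 36007. In NS livers it was 520, 431, 179, 1646 and 299 CPM in animals 10865, 35930, 35937, 35963 and 35987. In S livers it was 2012, 682, 569, 1687 and 764 CPM in animals 10880, 35955, 35982, 35990 and 36016. Every S liver lay above every C liver, and the NS livers overlapped the C livers only because the chow animal 36007 lay above the NS animal 35937. S and NS overlapped only through the NS animal 35963, and the other NS livers lay below every S liver.

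The means were 56.2 ± 76.6 CPM in C (SD, n = 6), 615 ± 591 in NS (SD, n = 5) and 1143 ± 659 in S (SD, n = 5), and from the lowest to the highest animal Apoa4 spanned 113-fold. The smallest number of reads behind a value was 123, so counting error was small beside the differences among animals. On the log2 scale Apoa4 was higher by 4.34 ± 0.74 (SE) in S than in C, higher by 3.45 ± 0.72 in NS than in C, and higher by 0.89 ± 0.70 in S than in NS. The 95% interval of the S against NS difference, taken from its SE, ran from -0.49 to 2.27 and held 0. Without animal 36007, the differences from C grew to 5.51 in S and 4.62 in NS. Without the NS animal 35963, which had the highest level of its group, NS was higher than C by 2.67. The S against NS difference was then 1.68.

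**Figure D1:**
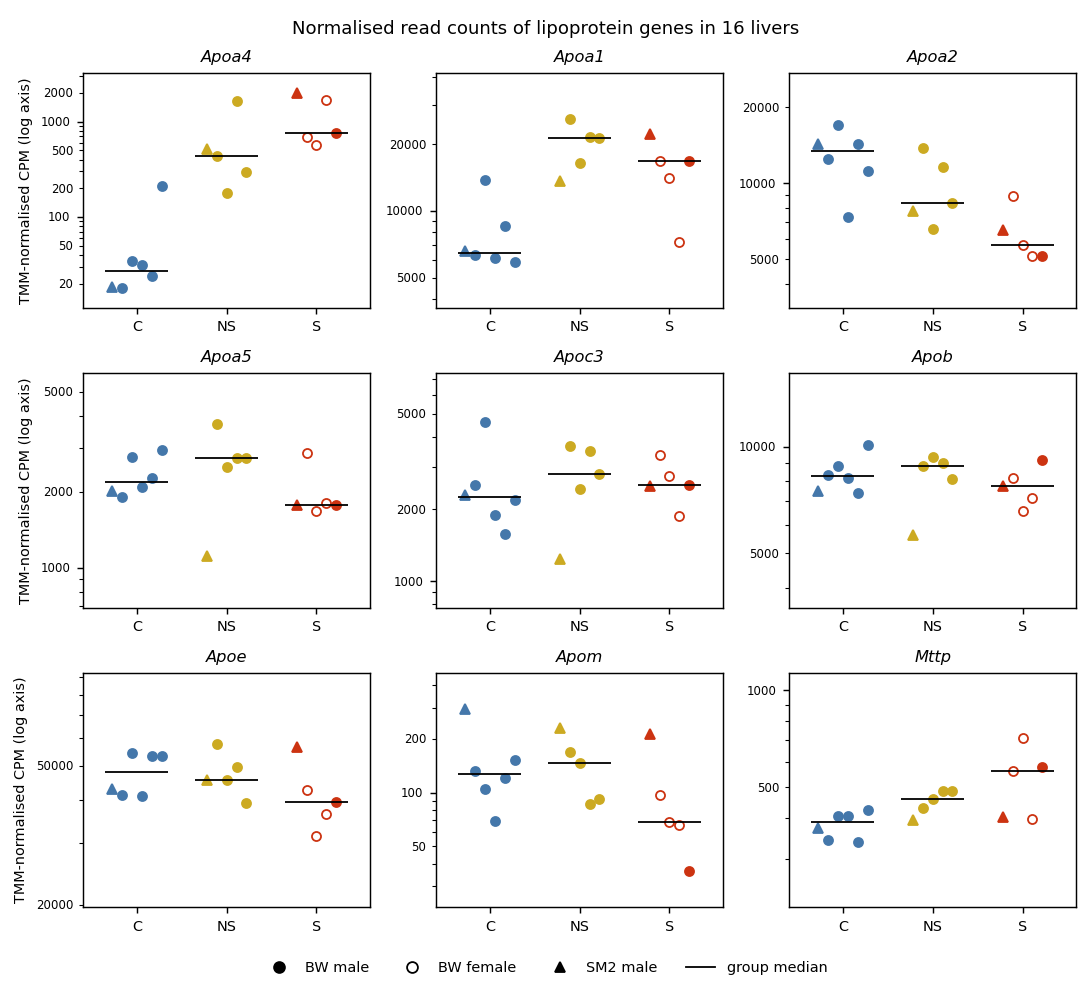
Level of each lipoprotein gene in each liver, as TMM-normalised CPM on a log axis whose range differs between panels, for the C (n = 6), NS (n = 5) and S (n = 5) groups. Points are animals, open circles are females, triangles are SM2 animals and lines are group medians; Apoa4 spans 113-fold over the animals, while Apob and Apoe span 1.80-fold and 1.84-fold.

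In the SM2 stock, with 1 animal in each group, the C, NS and S animals had 18.4, 520 and 2012 CPM of Apoa4. With BW animals alone the difference of S from C was 3.84 and that of S from NS was 0.54. With males alone these differences were 4.63 and 1.17. Within S, the females (569 to 1687 CPM) and the males (764 and 2012 CPM) overlapped. Apoa4 is also a gene of the gut, so enterocyte markers were read as well. Of 8 enterocyte markers 5 were in the table, Sis and Cdx1 among them had no read in any animal, and the summed level of the 5 was 0 to 1.01 CPM in C, 0.243 to 1.91 in NS and 0.185 to 2.06 in S.

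Apoa1, the main protein of HDL, was the other A apolipoprotein with higher levels on the HFD. Its CPM in C ran from 5860 over a median of 6476 to 13746, which was animal 35975. In NS it was 13651, 26027, 16344, 21448 and 21335 CPM. In S it was 22108, 16707, 14019, 7266 and 16724 CPM, in the order of animals given for Apoa4. All NS and S livers but that of 35990 lay above the 5 lower C livers, and the NS and C ranges overlapped only through the C animal 35975, which lay above the NS animal 10865.

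The log2 difference of Apoa1 was 0.96 ± 0.28 for S against C, 1.33 ± 0.28 for NS against C and -0.36 ± 0.29 for S against NS. The 3 S females had 7266 to 16707 CPM. The 2 S males had 16724 CPM (36016), hardly above the highest female, and 22108 CPM (10880, of the SM2 stock). The S against NS difference was -0.02 with males alone and -0.62 with BW animals alone. Apoa1 and Apoa4 lie close together in the genome, and the highest Apoa1 level was that of the NS animal 35930, whereas the highest Apoa4 level was that of the S animal 10880. The liver of the S female 35990 had 232 Apoa4 counts per 1000 Apoa1 counts, the other HFD livers had 10.9 to 91.0, the chow animal 36007 had 36.2 and the other C livers had 2.49 to 5.03.

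**Figure D2:**
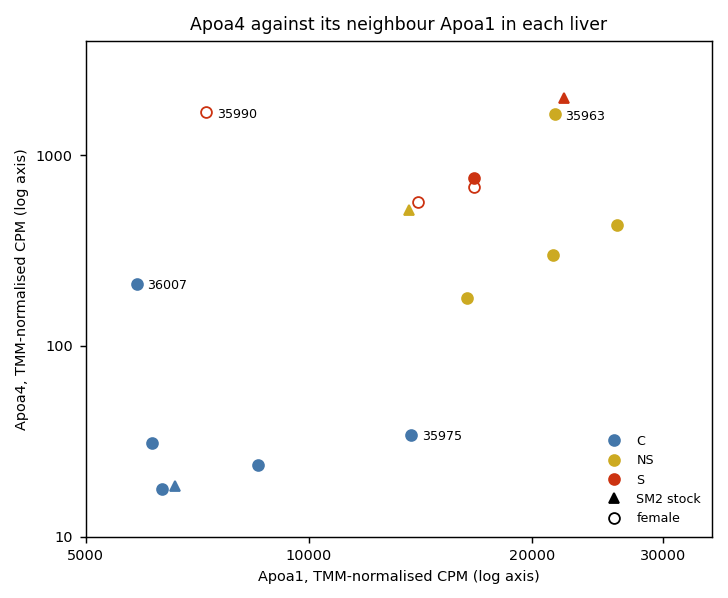
Apoa4 against Apoa1 in each of the 16 livers, both as TMM-normalised CPM on log axes, with C, NS and S in separate colours, SM2 animals as triangles and females as open circles. The chow animal 36007 has an Apoa4 level of 212 CPM with the lowest Apoa1 of all, 5860 CPM, and the S female 35990 has 1687 CPM of Apoa4 with 7266 CPM of Apoa1.

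By symbol, all 10 genes were found in the RefSeq gene table of another deer mouse assembly, which gives their order but not the coordinates of the build used here. There Apoa1, Apoc3, Apoa4 and Apoa5 stand next to each other with a noncoding RNA gene between the last pair, Sik3 comes before them and Zpr1 and Bud13 after. Apoc3, an inhibitor of lipoprotein lipase, had 1575 to 4621 CPM in C, 1243 to 3673 in NS and 1872 to 3369 in S, with log2 differences of 0.05 ± 0.28 for S against C and 0.12 ± 0.28 for NS against C. Apoa5, which promotes the clearance of triglyceride, had 1910 to 2941 CPM in C, 1109 to 3715 in NS and 1674 to 2862 in S, with log2 differences of -0.24 ± 0.24 and 0.13 ± 0.24. The groups overlapped for both genes, although both stand beside Apoa4 and Apoa1. The flanking genes, named for their position, were as close to level: Sik3 differed by -0.09 ± 0.17 and Bud13 by -0.19 ± 0.21 between S and C (adjusted p = 0.769 and 0.603, edgeR's quasi-likelihood test with Benjamini-Hochberg adjustment).

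Apoa2, the second protein of HDL, was the gene of the set whose level in S lay farthest below that in C. In C it ran from 7378 over a median of 13387 to 17005 CPM. In NS it was 7741, 13784, 6602, 11575 and 8357 CPM, and in S it was 6534, 8889, 5714, 5145 and 5165 CPM. All S livers but that of 35955 lay below all C livers, the exception being above the C animal 35998 alone. The log2 difference was -1.02 ± 0.24 for S against C, -0.41 ± 0.23 for NS against C and -0.61 ± 0.24 for S against NS. Thus the HDL genes Apoa1 and Apoa2 differed from C in opposite directions in S.

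General markers of hepatocytes were also lower in S than in C, compared by group and not liver by liver. Of 9 markers 7 were in the table, and all 7 had a negative log2 difference in S against C, with a median of -0.62. Of these, Hpx, Fgb and Ttr were the 3 whose adjusted p was under 0.1 (0.0770, 0.0456 and 0.0772, edgeR), with log2 differences of -0.58 to -0.66. Of all genes, 10.8% had an adjusted p under 0.1. The summed level of the markers was 59086 to 86576 CPM in C, 46723 to 72835 in NS and 38537 to 56787 in S. In bulk liver, fewer hepatocytes and less of an RNA in each hepatocyte cannot be told apart, and the part of this shift in the Apoa2 difference was not tested.

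The genes at the core of VLDL assembly, Apob and Mttp, differed by less than a fold of 2 in every comparison of groups. Apob, the structural protein of VLDL, ran from 7413 to 10089 CPM in C, from 5621 to 9335 in NS and from 6596 to 9159 in S. The log2 difference was -0.11 ± 0.15 for S against C, with a 95% interval from -0.41 to 0.19, and -0.04 ± 0.15 for NS against C. Mttp, which loads lipid onto the Apob protein, was 339 to 425 CPM in C with a median of 390. In NS it was 395, 432, 459, 487 and 488 CPM, and in S it was 404, 561, 709, 397 and 576 CPM. The S livers thus fell into 3 above all C livers and 2 inside the C range, and the log2 difference was 0.47 ± 0.15 for S against C, 0.24 ± 0.15 for NS against C and 0.23 ± 0.16 for S against NS. With males alone the S against C difference of Mttp was 0.36.

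Apoe, the receptor ligand of remnant particles, was the member with the most reads and took 3.49% to 5.72% of all counts of an animal. Its level was 40936 to 54263 CPM in C, 39240 to 57794 in NS and 31479 to 56532 in S, with log2 differences of -0.21 ± 0.17 for S against C and a value within 0.01 of 0 for NS against C, the latter with an SE of 0.17. Apom, a minor HDL protein that carries sphingosine-1-phosphate, had 69.3 to 294 CPM in C, 86.1 to 231 in NS and 36.4 to 214 in S. Its log2 difference was -0.60 ± 0.41 for S against C, and Apom met the call rule of the study, an adjusted p under 0.1 with a fold of at least 2, under 1 alternative, when the SM2 animal 10880 was left out. The 9 genes together took 6.74% to 10.1% of the counts of an animal.

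**Figure D3:**
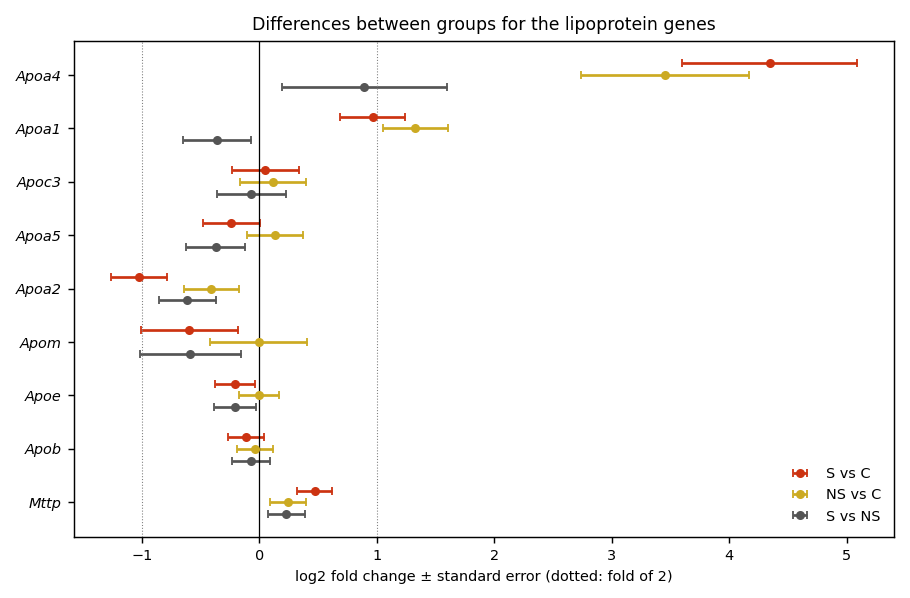
The log2 fold change (x axis) of each lipoprotein gene for the 3 comparisons of groups from edgeR, with bars of 1 standard error and dotted lines at a fold of 2. Apoa4 stands at 4.34 and 3.45 against C and Apoa2 at -1.02 in S vs C, and the differences of Apoc3, Apoe and Apob lie within 0.21 of 0 in every comparison.

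The call rule of the study was an adjusted p under 0.1 together with a fold of at least 2. Between S and C it was met by 4.06% of all genes tested, and of the 9 genes by 2, Apoa4 and Apoa2. Apoa2 fell under a fold of 2 when any of animals 10876, 35975, 36001, 35982, 35990 or 36016 was left out. Apoa4 met the rule with each of the 16 animals left out in turn, but its diet difference had been seen before it was chosen. By the adjusted p alone it was met by 10.8% of all genes, and of the 9 by 4, Apoa1 and Mttp being added. The median log2 difference was -0.11 over the 9 genes and 0.10 over all genes. CPM ranges of S and C that did not overlap were seen for 4.19% of all genes, and of the 9 for Apoa4 alone. As the contrast had a part in choosing the genes, nothing is read from these counts or from leaving animals out.

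Between NS and C the rule was met by 0.0712% of all genes, 0.0791% by the adjusted p alone, and by 0 of the 9 genes in edgeR, where 2 had an unadjusted p under 0.05, beside 8.29% of all genes. In DESeq2, 2 of the 9 met it, Apoa1 and Apoa4. Of all genes, DESeq2 called 53 in this comparison and edgeR 9. Ranges of NS and C did not overlap for 0.989% of all genes and for none of the 9. Between S and NS the rule was met by 0.00791% of all genes, with and without the fold, and by 0 of the 9 in edgeR and in DESeq2, with 1 of the 9 at an unadjusted p under 0.05 in edgeR, beside 10.9% of all genes. Ranges of S and NS did not overlap for 1.18% of all genes and for none of the 9. The difference of S from C and that of NS from C share the same C animals.

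The stock of the animals was not used to choose the genes, so its differences were tested. Apom was higher in SM2 than in BW animals. Its level was 294, 231 and 214 CPM in the SM2 animals of C, NS and S, and their mean was 247 ± 42.3 (SD, n = 3). The BW animals had 36.4 to 170 CPM, and their mean was 103 ± 39.3 (SD, n = 13), so the stocks did not overlap. The share of all genes without such an overlap was not counted. The log2 difference with the diet group in the model was 1.33 ± 0.24 (adjusted p = 0.00164, edgeR). Leaving out each animal or changing the model kept the adjusted p between 3.48e-05 and 0.0261.

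Of the 9 genes Apom was the 1 that met the rule between stocks, where 10.8% of all genes did, with 747 of 1370 higher in SM2. Apoa5 differed by -0.55 ± 0.23 (adjusted p = 0.126) and Apoc3 by -0.45 ± 0.29 (adjusted p = 0.335), in both of which the SM2 animal of NS, 10865, had the lowest level of all animals. Apoa4 differed by -0.03 ± 0.75 (adjusted p = 0.985), an error too wide to exclude a difference of several fold in either direction. With 1 SM2 animal per group, whether the stocks respond differently to the HFD was not tested.

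**Figure D4:**
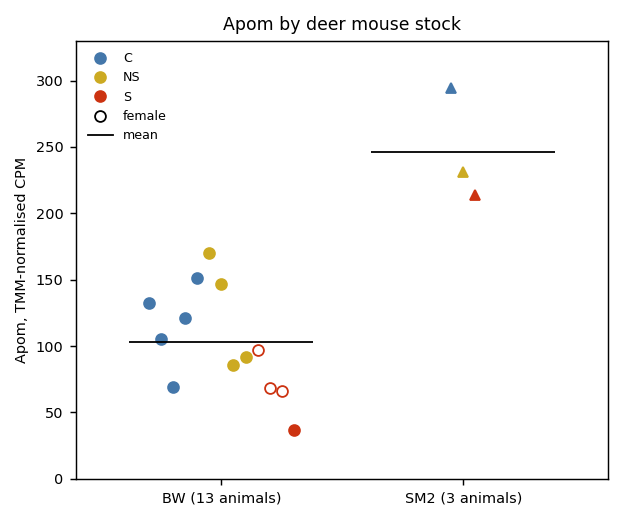
Apom level (TMM-normalised CPM, linear axis from 0) in BW (n = 13) and SM2 (n = 3) animals, coloured by group, with females as open circles and the mean of each stock as a line. The SM2 animals lie at 214 to 294 CPM and the BW animals at 36.4 to 170 CPM.

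The transcription factors known to drive these genes were compared next. Creb3l3, the liver and gut factor that activates Apoa4 and is itself controlled by cleavage at the membrane of the endoplasmic reticulum, had 496 to 926 CPM in C, 520 to 697 in NS and 485 to 682 in S. Its log2 difference was -0.24 ± 0.18 for S against C (adjusted p = 0.439, edgeR) and -0.12 ± 0.18 for NS against C (adjusted p = 0.899). The highest Creb3l3 level of all, 926 CPM, was that of the chow animal 36007, the C liver with the high Apoa4. The C animal 36001 followed with 839 CPM of Creb3l3, and its Apoa4 was 23.8 CPM. The S animal 10880, highest of all in Apoa4, had 486 CPM of Creb3l3. A relation of Creb3l3 to Apoa4 levels was not tested. RNA levels do not report the cleavage of the protein. Ppara, the receptor for fatty acids, differed by 0.35 ± 0.30 between S and C (adjusted p = 0.510) and Hnf4a, which sets hepatocyte identity, by 0.01 ± 0.21 (adjusted p = 0.991). Of 4 further known targets of Creb3l3 tested, none met the rule in edgeR or DESeq2 in any of the 3 comparisons of groups, and in S against C and in NS against C 1 of them had an unadjusted p under 0.05, which 23.8% and 8.29% of all genes had.

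In the wider list of 19 regulators of transcription, Srebf1, the driver of fatty acid synthesis, was higher in S than in C by 2.50 ± 0.49 on the log2 scale (adjusted p = 0.0198, edgeR). The rule was met by no other of the 19 in edgeR, and by 4.06% of all genes. Of the 19, 5 had an unadjusted p under 0.05, beside 23.8% of all genes. In DESeq2, Mlxipl, a carbohydrate-responsive factor named after its values were seen, met the rule as well, beside 550 of all genes. For Srebf1 every S liver lay above every C liver, and ranges of S and C did not overlap for 4.19% of all genes. In NS against C Srebf1 differed by 2.32 ± 0.49 (adjusted p = 0.140), and in S against NS by 0.18 ± 0.50 (adjusted p = 0.928). In NS against C none of the regulators met the rule in edgeR, where 5 had an unadjusted p under 0.05, beside 8.29% of all genes. In DESeq2, 1 of them met it, Srebf1, beside 53 of all genes.

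Of 14 genes of VLDL assembly and secretion none met the rule in S against C in edgeR or DESeq2. In edgeR, 5 had an unadjusted p under 0.05, where 23.8% of all genes did. An adjusted p under 0.1 was seen for 3, beside 10.8% of all genes, and these 3 are named here after their values were seen. Lpcat3, which gives the phospholipids of VLDL their polyunsaturated fatty acids, was higher by 0.92 ± 0.17 on the log2 scale (adjusted p = 0.0144), with all S and all NS livers above all C livers. Sar1b, the small GTPase that loads large cargo for export from the endoplasmic reticulum, had a log2 difference of -0.72 ± 0.22 (adjusted p = 0.0646), and Tor1aip1, a protein of the nuclear envelope, had a log2 difference of -0.33 ± 0.11 (adjusted p = 0.0887). Of 7 other genes named as apolipoproteins, none met the rule in S against C in edgeR or DESeq2. In edgeR, 4 had an unadjusted p under 0.05, beside the same 23.8% of all genes. By adjusted p alone 3 were lower, beside 10.8% of all genes with an adjusted p under 0.1. The log2 differences of the 3 were -0.51 for Apoh, -0.59 for Apoo and -0.61 for Apool (adjusted p = 0.0971, 0.0534 and 0.0421, edgeR). Apoo and Apool act in mitochondria, not in plasma particles. Of 10 genes of HDL and sterol transfer none met the rule in S against C in edgeR, with or without the fold. Of these 10 genes, 3 had an unadjusted p under 0.05 in edgeR, again beside 23.8% of all genes. In DESeq2, 1 of them, the sterol exporter Abcg1, named after its values were seen, met the rule, beside 550 of all genes.

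The genes whose level followed that of Apoa4 most closely over the 16 animals were ranked by Pearson's r of log2 CPM, as a description. They were Prss35, a secreted protein of the serine protease family (r = 0.885), Pelp1, a nuclear receptor coregulator (r = 0.867), Lpcat3 (r = 0.854), Ubtf, a factor of ribosomal RNA transcription (r = 0.851), and Ccar2, a nuclear regulator of the stress response (r = 0.830). The points share the diet groups, so a gene picked by its likeness to Apoa4 will tend to differ between them as Apoa4 did, and for Prss35 only the levels are given. Its CPM was 0 to 6.77 in C, 13.5 to 93.7 in NS and 22.4 to 60.3 in S. After the group means were subtracted, the closest were Taf1d (r = 0.858), Aamp (r = 0.814), Arpc5 (r = 0.801), Rnf41 (r = 0.797) and Atxn7l3b (r = 0.792), none of them in the first list.

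Within groups the 9 genes varied together only in part. Of 36 pairs, 27 had a positive and 9 a negative r after the group means were subtracted. The highest were Apoa5 with Apob (0.757) and Apoa5 with Apoc3 (0.733), but both rested in part on the NS animal 10865, which was low in all 3 genes, and were 0.429 and 0.490 without it. Apoa1 with Apoc3 had 0.685 and, over the animals left out in turn, 0.541 to 0.780. Apoa4 had -0.07 with Apoa1 and a value within 0.01 of 0 with Apoc3, its neighbours, and its highest value was 0.465, with Apoe.

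The study described coordination by Pc, the correlation, over all other genes, of a gene's correlations in a first group with its correlations in a second. A Pc near 1 would mean that the gene kept its partners and a negative one that they were inverted. Computed on the counts, Pc of Apoa4 was 0.0813 between S and C, 0.0418 between NS and C and 0.0313 between S and NS, beside medians over all genes of 0.201, 0.102 and 0.174. Its errors by leaving out each animal were 0.135, 0.0777 and 0.341, larger than the values. On CPM its Pc was 0.00283, 0.0827 and 0.152, beside medians of 0.102, 0.152 and 0.181. The scaling thus changed the order of the comparisons both for Apoa4 and for the median gene. The study does not name the scale of its Pc. Its averages were lowest in S vs C and highest in S vs NS, as were the CPM medians but not the count medians. Its gene numbers in S vs C and NS vs C, 13434 and 13340, were those on CPM, but its number in S vs NS was not. The lowest of the set on counts was that of Apoa1 in S vs NS, -0.134 ± 0.388 on counts and -0.372 ± 0.295 on CPM. The highest on counts was Apob in S vs C with 0.365 ± 0.0677 on counts, which was -0.0446 ± 0.0626 on CPM, so its Pc depended on the scaling. Each correlation rested on 5 or 6 animals, and no order of the genes is read from Pc.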

How the data were processed

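The authors aligned the paired reads with STAR 2.7.2 to the deer mouse genome and assigned the reads that mapped to 1 place to genes with featureCounts (Subread), per the labels and the methods of the study; the strand setting is not given in the sources used here. They deposited whole-number counts of 16910 genes in 16 animals, each animal 1 library, and every column and line was used. Precision is limited by the number of animals more than by depth.

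Tests were edgeR 4.0.16 quasi-likelihood tests in R 4.3.3 with TMM scaling, over 12639 genes (0.5 CPM or more in any 1 animal), with all 16 animals and no covariate; stock was tested with the diet group in the model. SE is the log2 coefficient over the root of F. P-values were Benjamini-Hochberg adjusted over all genes. Alternatives were DESeq2 1.42.0, other scaling, filters, thresholds and covariates, subsets of animals and leaving out each animal. Likeness used log2 of CPM plus 0.5. Scripts were tested on simulated data.

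The genes and lists were chosen with earlier results of these data known. Named were the members, Creb3l3, Ppara, Hnf4a, up to 3 genes of each list and comparison that met the rule (some of these results are not reported here), and the 5 genes most like Apoa4 by each measure. Any other gene was named for its position, as a marker or after its values were seen. Figures were drawn with matplotlib 3.10.9.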

Additional observations from a re-analysis of the deposited data

Results flagged for a closer look

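Of 27 sets of values, each 1 of the 9 genes in 1 group, 3 held an animal set apart from the rest of its group by Dixon's test on log2 CPM, where chance gives 1.35. Apoa4 was 212 CPM in the chow animal 36007, above the other 5 C animals. Apoa5 was 2862 CPM in the S female 35955, above the other 4 S animals. Apob was 5621 CPM in the NS animal 10865, an SM2 male, below the other 4 NS animals.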

How the results depend on the processing

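The number of the 9 genes that met the rule in S vs C was 2, and 4 at an adjusted p under 0.1 with no fold minimum, a setting chosen after seeing the data. Leaving out each animal gave 1 to 3, the latter without 10880, where Apom was added; Apoa1 was added with sex as a covariate, with males alone and without 35975 or 35990. Apoa4, chosen with its diet difference known, was kept throughout. Apoa2 fell under a fold of 2 without any of 10876, 35975, 36001, 35982, 35990 or 36016. In NS vs C it was 0, and it was 2 with DESeq2 and with stock as a covariate (Apoa1 and Apoa4), 1 with sex as a covariate, with males alone and with only the compared groups (Apoa1), and 0 to 1 leaving out each animal, the 1 being Apoa1 without 35975 or 35990 and Apoa4 without 36007 or 35930. In S vs NS it was 0 under all 27 alternatives and in SM2 vs BW 1 under all 24. No called difference of a member changed sign. Over all genes, S vs C gave 513 calls, 1359 with no fold minimum and 192 to 573 leaving out each animal (192 without 36007, 219 without 35975, 245 without 36016, 247 without 36001). NS vs C gave 9, 53 with DESeq2, 29 with stock as a covariate, 5 at an adjusted p under 0.05, and 2 to 29. S vs NS gave 1, 71 with DESeq2, 17 with stock, 191 with sex, 18 with BW alone, 157 with males alone, 0 with only the compared groups, and 1 to 15. SM2 vs BW gave 1370, 2752 with no fold minimum, and 868 to 1448. The causes were not tested. Of the 5 genes most like Apoa4, 1 was among the 5 by Spearman's rho. No paired analysis was run, since each library came from a different animal.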

Other observations

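The chow animal 36007, with the high Apoa4, also had 208 CPM of Cidec, a lipid droplet protein, where the other C animals had 60.9 to 96.5; Cidec was named after its values were seen. The S animal 36016 had 2058 CPM of the collagen gene Col1a1, at most 17.0 elsewhere, and an Apoa4 of 764 CPM, inside the range of its group.

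Some genes of the wider lists differed between the stocks, where 2752 of the 12639 genes tested had an adjusted p under 0.1 in edgeR. Of 7 other genes named as apolipoproteins 1 had such an adjusted p. Of 14 genes of VLDL assembly and secretion 1 was higher and 1 was lower by it, also named after their values were seen. Whether these shares differ from that of all genes was not tested. Apof, a minor apolipoprotein named after its values were seen, had a log2 difference of -1.35 ± 0.31 between SM2 and BW (adjusted p = 0.00712, edgeR), the reverse of Apom, and differed by -0.01 ± 0.37 between S and C (adjusted p = 0.995). Vmp1 and Cideb, genes of VLDL export, had log2 differences between stocks of -0.59 ± 0.12 and 0.48 ± 0.17 (adjusted p = 0.00256 and 0.0718), and adjusted p between S and C of 0.667 and 0.745.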
